A study of Mus musculus with 38 samples.

Results

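This account follows 92 nuclear genes of oxidative phosphorylation among the 21671 genes measured in mouse liver. They are every gene of the deposited tables whose symbol begins with Nduf, Uqcr, Cox4 to Cox8 or Atp5, plus Sdha, Sdhb, Sdhc and Sdhd, and without Cox4nb, whose symbol only looks like that of a cytochrome oxidase subunit. By complex they comprise 36 genes of complex I, 8 complex I assembly factors or related genes, 4 of complex II, 8 of complex III, 20 of complex IV and 16 of complex V. RNA was sequenced in 38 libraries from livers in which Myc, YAP or both were switched on by doxycycline-regulated transgenes. In the R26 system every animal, WT included, carried R26-rtTA, an activator under the broadly active Rosa26 promoter, and in the tet groups the transgenes were induced for 2 days. Its groups were R26-rtTA;WT (4 libraries), tet-Myc/YAP (3), tet-YAP (6) and tet-Myc (4). In the LAP system every animal carried LAP-tTA, an activator under a liver-specific promoter, and the transgenes were on for 4 weeks in tet-Myc/YAP (3 libraries), tet-YAP (4) and tet-Myc (3), beside WT (3), for which neither system's labels give a duration. Another 8 LAP libraries came from liver tumours, labelled as nodules, of LAP-tTA;tet-YAP mice. The YAP transgene encodes an activated form of the protein. The labels gave no age and did not say whether each library stands for an animal of its own, so the p-values measure the spread between these libraries.

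Oxidative phosphorylation passes electrons from NADH through complex I, or from succinate through complex II, to complexes III and IV, and the proton gradient that complexes I, III and IV build drives ATP synthesis by complex V. Complexes I, III, IV and V combine nuclear-encoded subunits with a few encoded by mitochondrial DNA, whereas complex II is entirely nuclear-encoded, and complex I needs dedicated assembly factors that do not stay in the finished enzyme. Hepatocytes are rich in mitochondria and depend on this machinery for gluconeogenesis, urea synthesis and fatty acid oxidation.

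Promoter sequences were available for 76 of the 92 genes, and the 250 bases before the RefSeq start were searched on both strands for short motifs. The core bound by NRF1, a regulator of respiratory chain genes, was searched as GCGCA and GCGC with any single base between them. It was present in 14 of the 76 genes (18.4%), against 3.7% of all 32851 mouse promoter entries. A member with several entries was counted once if any held the motif, whereas the entries of all genes were counted singly. The shares thus differ in unit, which can raise those of the members. The E-box CACGTG, to which Myc binds, was present in 7 (9.2%), against 6.0%. The TEAD core GGAATG, through which YAP contacts DNA, was also present in 7 (9.2%), against 12.6%. The ETS core CCGGAAGT was found in 3 (3.9%), against 2.9%, and the YY1 core AAGATGGCG in 2 (2.6%), against 0.6%. No motif searched contains another, and a match describes these letters only. Promoters of 4 genes to which the results return are printed 5′ to 3′ on the gene's strand, with the matched motif in capitals. Ndufaf4 is shown for its NRF1 core, which begins 113 bases before the start (GRCm38.p6, chr4:24897833-24898082, plus strand). Atp5sl, named Dmac2 by RefSeq, is shown for an E-box 22 bases before the first of its 2 starts (chr7:25619164-25619413, plus strand). Atp5g3 is shown for an E-box 238 bases before the start (chr2:73911327-73911576, minus strand). Cox6b2, the only member called higher in tumours against WT, held none of these motifs in the 131 bases shown (chr7:4753095-4753225, minus strand).
Ndufaf4: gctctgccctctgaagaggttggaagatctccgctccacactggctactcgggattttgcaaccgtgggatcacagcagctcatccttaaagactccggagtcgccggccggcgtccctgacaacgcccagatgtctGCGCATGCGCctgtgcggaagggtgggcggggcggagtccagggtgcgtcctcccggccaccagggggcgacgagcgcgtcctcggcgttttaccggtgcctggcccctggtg
Atp5sl: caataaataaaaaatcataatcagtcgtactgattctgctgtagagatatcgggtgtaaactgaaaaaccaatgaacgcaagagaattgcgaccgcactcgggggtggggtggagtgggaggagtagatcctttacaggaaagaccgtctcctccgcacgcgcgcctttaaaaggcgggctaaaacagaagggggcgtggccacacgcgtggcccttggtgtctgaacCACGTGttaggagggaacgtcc
Atp5g3: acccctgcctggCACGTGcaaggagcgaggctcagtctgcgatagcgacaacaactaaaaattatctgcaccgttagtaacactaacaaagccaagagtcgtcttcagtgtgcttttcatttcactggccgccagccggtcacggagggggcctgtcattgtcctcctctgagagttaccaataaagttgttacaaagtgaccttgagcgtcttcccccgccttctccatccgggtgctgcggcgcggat
Cox6b2: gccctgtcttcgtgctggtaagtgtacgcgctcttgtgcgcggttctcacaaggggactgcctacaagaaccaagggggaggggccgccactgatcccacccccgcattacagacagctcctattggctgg

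Values are RPKM, reads per kilobase of gene divided by the depth of the library, which allow genes of different length to be compared. In LAP WT livers the most abundant member was Atp5b, the catalytic beta subunit of ATP synthase, at 40.6 ± 8.7 RPKM (SD, n = 3). Over all libraries of a system, the most abundant members of the other classes were the same in both systems. In LAP WT livers these members were the complex IV subunit Cox6a1 at 33.7 ± 8.1 RPKM, the complex II anchor Sdhd at 33.8 ± 7.1, the complex I accessory subunit Ndufb10 at 31.4 ± 6.2, the Rieske protein gene Uqcrfs1 at 29.9 ± 7.0 and the assembly factor Ndufaf1 at 10.2 ± 1.9 (SD, n = 3 each). Within LAP WT alone Atp5sl, at 12.1 ± 2.4 RPKM, averaged above Ndufaf1, and Ndufv1, at 32.7 ± 7.7, above Ndufb10, within their spread (SD, n = 3 each). In R26 WT, Atp5b stood at 41.5 ± 4.5 RPKM and Ndufaf1 at 12 ± 0.20 (SD, n = 4). At the other end, the testis forms Cox7b2 and Cox8c were listed at 0 in all 38 libraries.

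In LAP the level of the whole group fell as sequencing depth rose, and in both systems groups also differed at similar depth. The value of 1 read, read off the spacing of low RPKM values, gave depths between 23.7 and 56.8 megareads (1000000 reads each). The 3 LAP WT libraries had 23.7, 31.8 and 37.7 megareads, and their members summed to 1942, 1557 and 1302 RPKM, so that the deepest WT library was the lowest. The 8 tumour libraries had 41.2 to 56.8 megareads, 7 of them more than any other library of the series, and summed to between 624 and 944 RPKM with a median of 798. LAP tet-YAP libraries had 34.7 to 46.9 megareads and summed to 856 to 1281 RPKM, below every WT library. In R26, the 2 tet-Myc/YAP libraries with 45.4 megareads each summed to 906 and 972 RPKM and the third, with 26 megareads, to 1188, against 1419 to 1809 in R26 WT at 27.0 to 29.9 megareads. R26 tet-YAP summed to 1004 to 1585 RPKM at 25.2 to 35.4 megareads, and tet-Myc to 1470 to 1690 at 31.7 to 35.3. At 32.2 megareads each, tet-YAP library 6 summed to 1004 RPKM and tet-Myc library 1 to 1516.

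**Figure D1:**
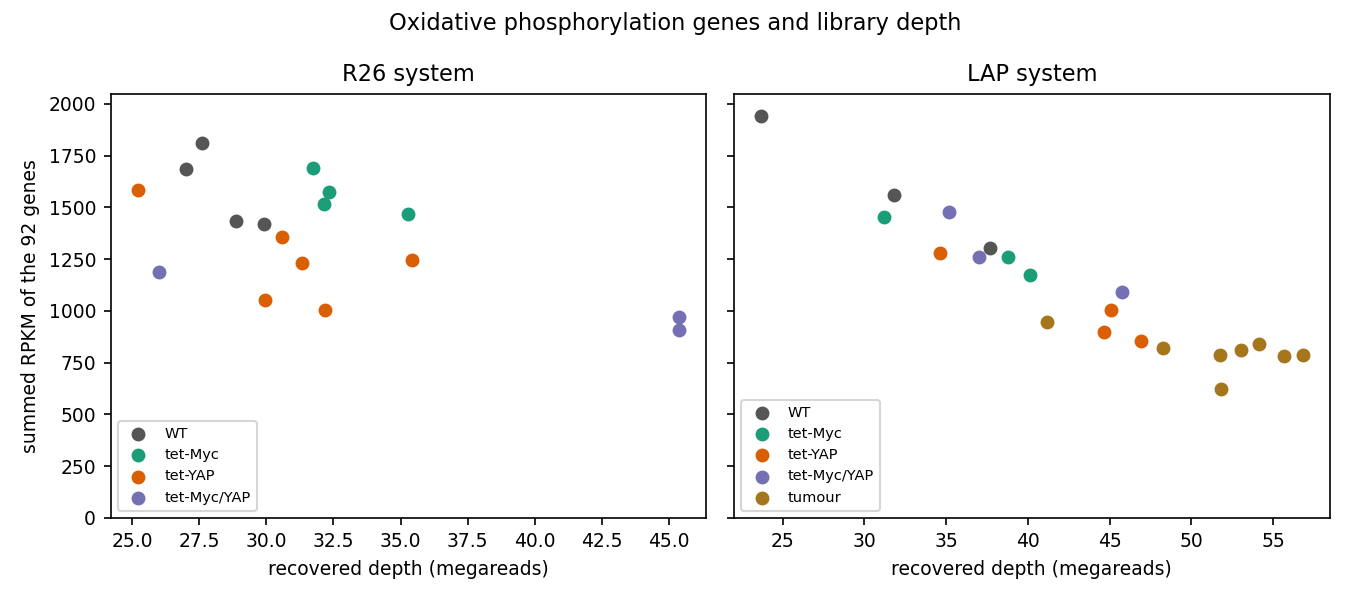
Summed RPKM of the 92 genes (vertical axis) against recovered depth in megareads (horizontal axis), one point per library, in the R26 system (left) and the LAP system (right). In LAP the points descend with depth, from WT at 1942 RPKM and 23.7 megareads to tumours between 624 and 944 RPKM. Groups also differ at similar depth, as LAP tet-YAP library 3 (895 RPKM, 44.6 megareads) and tet-Myc/YAP library 2 (1093 RPKM, 45.8 megareads) show.

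The same sums left undivided by depth differed far less. In reads per kilobase the members summed to 45980 to 49558 in LAP WT, 45273 to 48824 in tet-Myc, 46622 to 51937 in tet-Myc/YAP, 39980 to 45332 in tet-YAP and 32356 to 45516 in tumours. All 8 tumours and all 4 tet-YAP livers were below the lowest WT liver on this scale too, although 11 of these 12 libraries were sequenced more deeply than any WT liver. In every library the sixth-highest gene of all stood at 1447 to 1721 reads per kilobase whatever the depth, so abundant genes did not gain reads in proportion to depth. As a share of all RPKM in a library, the members held 1.73% to 1.94% in LAP WT, 1.36% to 1.58% in tet-YAP and 1.15% to 1.41% in tumours, with no overlap between WT and either group. LAP tet-Myc/YAP, at 1.53% to 1.64%, was also below every WT library, while tet-Myc, at 1.63% to 1.79%, overlapped WT. Since depth, the ceiling and genotype moved together, each comparison was also made after rescaling the libraries by median ratios, after quantile normalization, with log2 depth as a covariate, and in reads per kilobase undivided by depth. In bulk liver, fewer cells of a type and less RNA per cell cannot be told apart.

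A member passed the test, made by limma across all genes of a system on log2(RPKM + 0.5), at an adjusted p under 0.05 and a log2 difference of at least 0.5 in either direction. The background is the share of all genes tested that met this same call. Counts at an unadjusted p under 0.05 stand without such a share and cannot be set against the background. Of the 92 members, 86 reached at least 1 RPKM in at least 3 R26 libraries and 87 did so in LAP, and these were tested among 11263 and 12591 genes. The untested ones were restricted isoforms of complex IV, namely Cox4i2, Cox6a2, Cox7b2, Cox8b and Cox8c in both systems and Cox6b2 in R26.

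Tumours of LAP-tTA;tet-YAP mice had the lowest levels of the respiratory chain. Against LAP WT, 81 of 87 members fell and only Cox6b2 rose, with a median log2 difference of -0.95 over the members and -0.14 over all genes tested. The background was 31.3% of all genes called lower and 21.5% higher. In 79 of 87 members every tumour lay below every WT library, as did 30.2% of all genes. All 36 complex I subunits fell (median -1.01), as did 6 of 8 assembly genes (median -0.97), 4 of 4 in complex II (median -1.19), 8 of 8 in complex III (median -1.07), 12 of 15 in complex IV (median -0.85) and 15 of 16 in complex V (median -0.84). Only Atp5s, Ndufaf5, Ndufaf7, Cox7a1 and Ndufa4l2 were not called.

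The size of this fall depended on how depth was treated, while its direction mostly did not. Of the 81 members, 65 were called after rescaling, 21 after quantile normalization (with 1 further member, 22 were lower in that fit), 16 with depth as a covariate and 7 in undivided reads per kilobase. The shares of all genes called lower in these fits were 19.3%, 20.6%, 9.90% and 9.71%, so that the members stood far above the background after rescaling and near it after quantile normalization and undivided. Their median was -0.63, -0.31, -0.30 and -0.23 in these fits, beside 0.14, 0.00, 0.07 and 0.49 over all genes. The differences of 73 members were negative in all 4 settings, and those of the other 8 turned positive in at least 1 of them. In undivided reads per kilobase every tumour lay below every WT library for 28 of 87 members and 8.66% of all genes. Members called in all 4 settings were Ndufaf4, Atp5sl, Sdhb, Ndufa1 and Ndufb3.

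**Figure D2:**
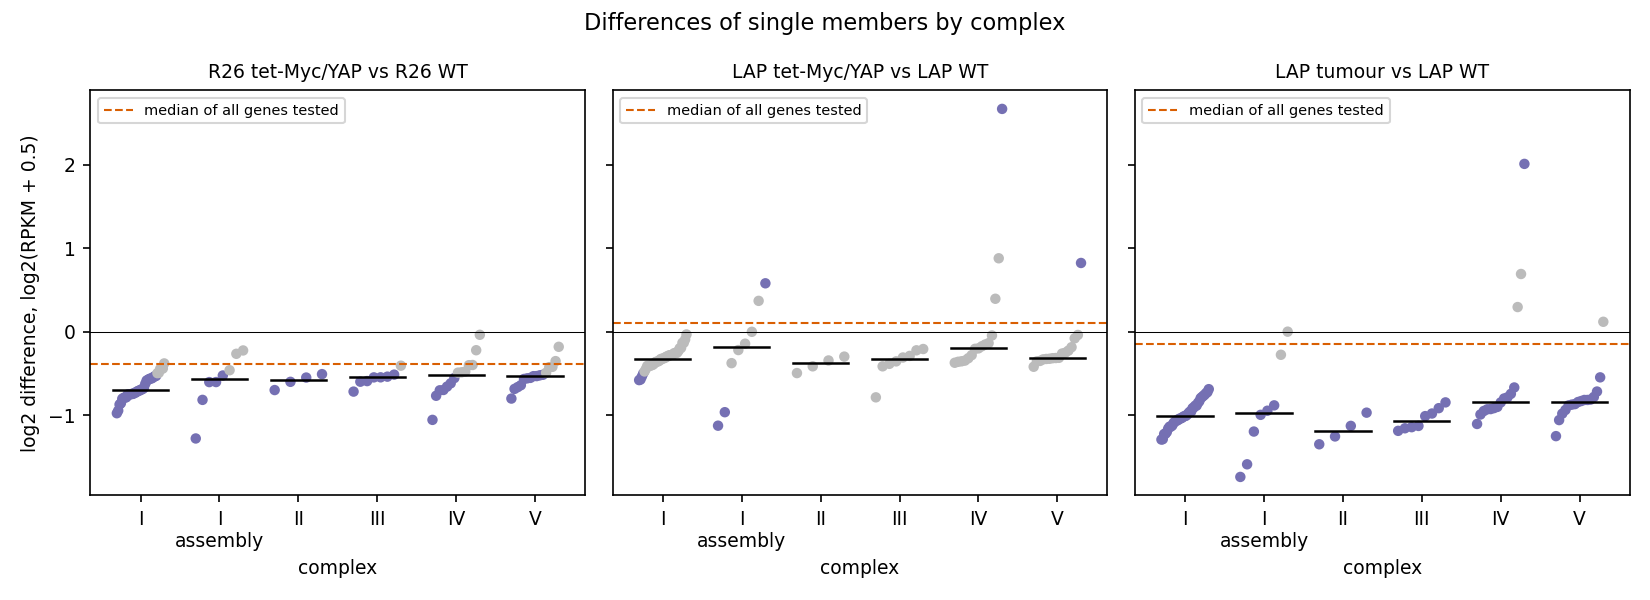
Log2 difference of each tested member, on log2(RPKM + 0.5), by complex, in R26 tet-Myc/YAP against WT (left), LAP tet-Myc/YAP against WT (middle) and tumours against LAP WT (right). Purple points were called and grey points were not, black bars are medians per complex and the dashed line is the median of all genes tested. In tumours the medians lie between -1.19 for complex II and -0.84 for complex V, with Cox6b2 alone at 2.01, and 8 of the 81 members called lower there turn positive in at least 1 other treatment of scale or depth.

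Ndufaf4, which acts early in building the membrane-bound part of complex I, had the lowest adjusted p in tumours. Its level was 9.73, 7.38 and 7.64 RPKM in the 3 LAP WT livers and between 1.85 and 3.53 in the 8 tumours, with a median of 2.37. No tumour reached the lowest WT liver, and the 4 tet-YAP livers lay between them at 5.95, 4.93, 3.64 and 3.63 RPKM. The log2 difference of tumours to WT was -1.59 ± 0.15 (SE, adjusted p = 7.07e-08), and it was -1.39 with depth as a covariate (adjusted p = 0.000998) and -0.91 in undivided reads per kilobase. In tet-Myc livers it stood at 7.29, 7.86 and 7.58 RPKM, inside or just under the WT range.

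Atp5sl, a complex I assembly gene despite its symbol, carried the widest fall. It stood at 14.6, 11.7 and 9.87 RPKM in WT and between 2.48 and 3.74 in tumours, a log2 difference of -1.74 ± 0.19 (SE, adjusted p = 3.27e-07). Here the other induced livers were low as well, at 5.87, 5.51 and 8.68 RPKM in tet-Myc, 6.59, 6.86, 3.84 and 3.39 in tet-YAP and 5.62, 4.39 and 5.66 in tet-Myc/YAP. All of these libraries were below the lowest WT library. The tumour difference kept its call with depth as a covariate, at -1.29 (adjusted p = 0.00576).

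Complex II fell as a unit in tumours. Sdhb, the iron-sulfur subunit, stood at 22.3, 19.3 and 15.7 RPKM in WT and at 5.31 to 8.17 in tumours (median 7.50), without overlap, and its log2 difference was -1.35 ± 0.14 (SE, adjusted p = 1.23e-07) and -0.83 with depth as a covariate (adjusted p = 0.00207). Sdha, the flavoprotein that oxidizes succinate, went from 27.2 ± 4.8 RPKM (SD, n = 3) to 11.1 ± 1.8 (SD, n = 8), or -1.25 ± 0.145 (SE, adjusted p = 6.20e-07). The membrane anchors Sdhc and Sdhd fell by 0.97 and 1.13 on the log2 scale (adjusted p = 3.53e-06 and 2.61e-06). With depth as a covariate Sdhb at -0.83 and Sdha at -0.56 were called, whereas Sdhc at -0.39 and Sdhd at -0.47 were under the fold threshold.

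Within complex I, the accessory subunits Ndufa1 and Ndufb3 of the membrane arm were the other members called in all settings. Ndufa1 stood at 15.9, 12.6 and 10.9 RPKM in WT and between 4.19 and 5.63 in tumours, a difference of -1.29 ± 0.15 (SE, adjusted p = 5.77e-07). Ndufb3 stood at 19.7, 16.1 and 12.6 RPKM in WT and between 4.35 and 7.71 in tumours, at -1.29 ± 0.16 (SE, adjusted p = 1.88e-06). For neither gene did a tumour overlap a WT liver. With depth as a covariate the median over the tested members went from -0.95 to -0.30, and the most abundant members were under the fold threshold. Atp5b fell by 0.82 on the log2 scale, from 40.6 to 22.6 ± 2.9 RPKM (SD, n = 8), yet its difference was -0.08 with depth as a covariate. Uqcrfs1 went from -1.14 to -0.42, Ndufb10 from -1.06 to -0.42 and Cox6a1 from -0.99 to -0.30 in the same way.

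**Figure D3:**
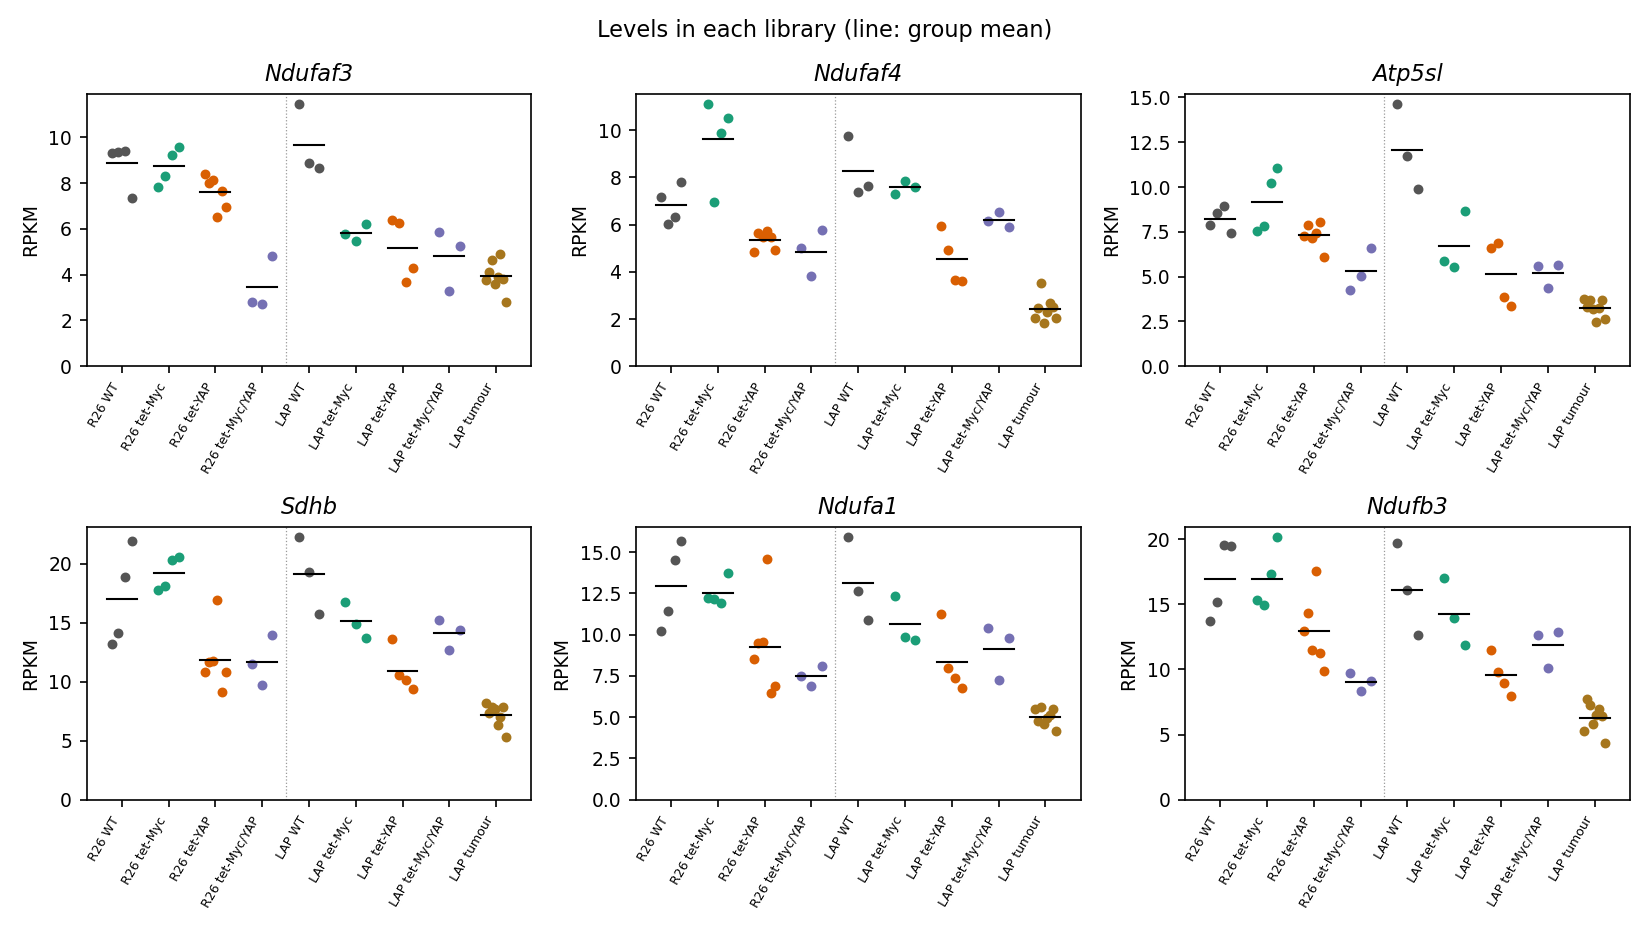
RPKM (vertical axis, from 0) of Ndufaf3, Ndufaf4, Atp5sl, Sdhb, Ndufa1 and Ndufb3 in each library of the 9 groups, with the group mean as a line and R26 groups to the left of the dotted line. For Ndufaf4 the 8 tumours sit between 1.85 and 3.53, below the 3 LAP WT livers at 7.38 to 9.73, and Ndufaf3 is lowest in R26 tet-Myc/YAP at 2.73 to 4.83.

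Cell type markers moved with this comparison. The summed RPKM of 6 hepatocyte markers lay between 187 and 268 in LAP WT and between 83.7 and 145 in tumours, with 6 of 6 over 1 RPKM in both, and that of 6 cholangiocyte and progenitor markers was 8.52 to 11.9 (1 of 6 over 1 RPKM) and 41.2 to 82.3 (5 of 6). Of the neutrophil markers, 4 of 5 were found, and they summed to 0.496 to 4.88 RPKM in WT (1 of 4 over 1 RPKM) and 6.67 to 46.9 in tumours (4 of 4), with no marker of these 3 lists at 0 in either group. The 6 endothelial markers summed to 39.5 to 46.6 RPKM in WT and 15.1 to 30.2 in tumours, with 6 of 6 over 1 RPKM in both. Their part in the members' fall was not tested. All 8 tumours showed the female Xist pattern, as did WT libraries 2 and 3, and with that pattern as a covariate 1 member was higher and 80 were lower.

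LAP tet-YAP livers without tumours lay between WT and tumours. Against WT, 71 of 87 members fell and only Cox6b2 rose (background 15.3% lower and 11.5% higher), and the median was -0.62 over the members and -0.10 over all genes. Lower were 33 of 36 complex I subunits, 4 of 8 assembly genes, 4 of 4 in complex II, 7 of 8 in complex III, 10 of 15 in complex IV and 13 of 16 in complex V. The lowest adjusted p belonged to Atp5sl (-1.19 ± 0.215 SE, adjusted p = 0.000824), Ndufs7, a core subunit near the quinone site (-0.86 ± 0.16, adjusted p = 0.00128), Sdhb (-0.78 ± 0.15, adjusted p = 0.00153) and the accessory subunit Ndufb5 (-0.79 ± 0.16, adjusted p = 0.00189). Ndufs7 stood at 23.9, 19.4 and 17.1 RPKM in WT and 13.7, 11.7, 9.66 and 8.72 in tet-YAP, without overlap. In 41 of 87 members every tet-YAP liver was below every WT liver, as for 24.1% of all genes, and in undivided reads per kilobase this held for 37 members and 6.53% of all genes. The count changed with the treatment of depth: 23 were called after rescaling, 5 after quantile normalization and 1, Atp5sl, with depth as a covariate or undivided, and 68 of 71 stayed negative in all 4 settings. Of all genes, 5.9%, 6.07%, 1.22% and 1.1% were called lower in these fits, so that the members stood above the background after rescaling and near it in the other fits. Without WT library 1, the shallowest, 23 members passed, and 79 passed without tet-YAP library 1. Hepatocyte markers summed to 134 to 182 RPKM and cholangiocyte and progenitor markers to 19.9 to 29.0 in tet-YAP (2 of 6 over 1 RPKM). Macrophage markers, of which 5 of 6 were found and all 5 exceeded 1 RPKM, summed to 42.7 to 75.6 RPKM in WT and 81.3 to 109 in tet-YAP. The part of these cell types was not tested.

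Set against tet-YAP livers, tumours were lower in 15 of 87 members and higher in 1, Ndufa4l2 (background 15.5% and 9.89%), with a median of -0.31 over the members and -0.07 over all genes. The share of members called lower was thus near that of all genes. Lowest p-values belonged to Ndufc1, a small membrane-arm subunit, which stood at 10.5, 8.20, 6.65 and 8.34 RPKM in tet-YAP and 3.99 to 6.20 in tumours (median 4.73). Every tumour was below every tet-YAP liver, and the log2 difference was -0.73 ± 0.125 (SE, adjusted p = 0.000192), or -0.61 with depth as a covariate (adjusted p = 0.00261). Ndufaf4 fell further, by 0.78 on the log2 scale (adjusted p = 0.000264), and was the member called in all 4 other settings, while Ndufa1 (-0.66) and Sdha (-0.64) were under the fold threshold with depth as a covariate, at -0.45 and -0.38. Counts ranged from 6 to 17 as single libraries were left out, with 6 without tet-YAP library 1. Every tumour showed the female Xist pattern, but of the tet-YAP livers only library 2 did. With that pattern as a covariate 6 members were called.

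LAP tet-Myc livers gave no called member in limma (background 0.0238% of all genes in either direction), with 9 members at an unadjusted p under 0.05, all lower, and a median of -0.28 over the members and -0.05 over all genes. In tet-Myc/YAP against WT, 6 members fell and 3 rose of 87 (background 14.0% lower and 22.5% higher), with a median of -0.31 against 0.11 over all genes. The median of tet-YAP against WT was lower, at -0.62 in RPKM as deposited. After rescaling the 2 medians were close, at -0.37 for tet-Myc/YAP and -0.41 for tet-YAP. They were -0.03 and -0.17 after quantile normalization, -0.01 and -0.22 with depth as a covariate, and 0.03 and -0.16 undivided. The 6 lower members included Atp5sl (-1.13 ± 0.23 SE, adjusted p = 0.000707), Ndufaf3, an assembly factor that works with Ndufaf4 (-0.96 ± 0.21, adjusted p = 0.00139), and the accessory subunits Ndufa8 (-0.57, adjusted p = 0.0273) and Ndufa1 (-0.50, adjusted p = 0.0311). Atp5sl and Ndufaf3 were called in all 4 other settings, whereas Ndufa8 and Ndufa1 were at -0.27 and -0.22 with depth as a covariate. Without WT library 1, 5 members passed, and 25 without WT library 3. Hepatocyte markers summed to 135 to 167 RPKM and endothelial markers to 22.3 to 33.2 in tet-Myc/YAP, both below every WT library, with 6 of 6 over 1 RPKM in each list. Cholangiocyte and progenitor markers went the other way, to 36.6 to 63.3 RPKM (4 of 6 over 1 RPKM) from 8.52 to 11.9 in WT (1 of 6). The part of these cell types was not tested.

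The 3 members that rose in LAP tet-Myc/YAP were Atp5s, Cox6b2 and Ndufaf7. Atp5s, which encodes the coupling factor B of ATP synthase, stood at 1.57, 1.88 and 1.77 RPKM in WT, 2.12, 2.18 and 1.59 in tet-Myc, 2.33, 2.11, 1.63 and 1.47 in tet-YAP and 3.39, 3.20 and 3.82 in tet-Myc/YAP. The 3 livers with both transgenes were above every other LAP library, tumours included. Its log2 difference was 0.82 ± 0.16 (SE) to WT (adjusted p = 0.000432), 0.69 ± 0.16 to tet-Myc (adjusted p = 0.00280) and 0.75 ± 0.15 to tet-YAP (adjusted p = 0.00123). Those to WT and tet-Myc were not called after quantile normalization, nor was that of Ndufaf7 to WT. Ndufaf7, a methyltransferase needed for complex I assembly, stood at 4.52, 3.69 and 4.61 RPKM with both transgenes and 3.02, 2.57 and 2.49 in WT, a difference of 0.58 ± 0.16 (SE, adjusted p = 0.00672).

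Only Atp5s and Cox6b2 were called between LAP tet-Myc/YAP and tet-Myc, both higher (background 27.7% in either direction). Against tet-YAP, 6 were higher and none lower (background 20.5% higher; 38 members had an unadjusted p under 0.05, all higher), among them Ndufaf5, a hydroxylase of complex I assembly (0.61, adjusted p = 0.00604), and Cox7a2l, a supercomplex factor (0.61, adjusted p = 0.00758). Cox7a2l stood at 31.9, 24.6 and 28.4 RPKM with both transgenes and 23.1, 18.1, 16.5 and 16.1 with YAP alone, without overlap. This count was 31 without tet-YAP library 1 and 3 without tet-Myc/YAP library 1. The interaction, which asks whether both transgenes together differ from the sum of their single effects, was positive and called for 16 of 87 members (background 15.7% in either direction), with a median of 0.62 against 0.25 over all genes. The lowest adjusted p were those of Ndufs7 (0.96 ± 0.24 SE, adjusted p = 0.0179), Ndufa11, a membrane-arm subunit (0.85 ± 0.21, adjusted p = 0.0190), Cox7a2l (0.90 ± 0.23, adjusted p = 0.0216) and Ndufb5 (0.89 ± 0.23, adjusted p = 0.0223). None of the 16 was called in all 4 other settings, and the count was 0 without WT library 1 and 55 without tet-YAP library 1.

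After induction for 2 days, R26 tet-Myc gave no called member in limma (background 4.87% in either direction), 5 at an unadjusted p under 0.05, of which 3 were lower and 2 higher, and a median of -0.01 over the members against -0.02 over all genes. Ndufaf4 came nearest: it stood at 7.16, 6.01, 6.33 and 7.81 RPKM in WT and 11.1, 6.95, 9.88 and 10.5 in tet-Myc, with 3 of 4 libraries above every WT library, and its difference of 0.45 ± 0.13 (SE, adjusted p = 0.0389) was under the fold threshold. It passed with depth as a covariate, at 0.56 (adjusted p = 0.00992). R26 tet-YAP lowered 6 of 86 members (background 4.19% lower), with a median of -0.34 against -0.11 over all genes. At an unadjusted p under 0.05 in limma, 74 members had a negative difference, and the share of all genes at that cutoff is not given. The 6 were the assembly factor Ndufaf6 (-0.50 ± 0.12 SE, adjusted p = 0.0104), the complex I subunits Ndufb7 and Ndufa6 (both -0.53), the complex IV subunit Cox7c (-0.58), Sdhb and Ndufa4l2 (-0.59). None was called after rescaling or in undivided reads, and the count was 1 without WT library 3 and 23 without tet-YAP library 4. Among the R26 libraries 6 pairs differed little from each other, and with these pairs averaged no member was called and the calls over all genes went from 697 to 27.

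With both transgenes for 2 days, 64 of 86 members fell against R26 WT and none rose (background 37.6% lower; 79 had a negative difference at an unadjusted p under 0.05 and none a positive one). The median was -0.57 over the members, beside -0.39 over all genes. Lower were 30 of 36 complex I subunits (median -0.70), 5 of 8 assembly genes, 4 of 4 in complex II, 7 of 8 in complex III, 7 of 14 in complex IV and 11 of 16 in complex V. In 69 of 86 members every tet-Myc/YAP library was below every WT library, as for 55.2% of all genes, and in undivided reads per kilobase this held for 22 members and 17.2% of all genes. The other settings called 4 members after rescaling, 2 after quantile normalization, 25 with depth as a covariate and 4 undivided, and 43 of the 64 stayed negative in all of them. Of all genes, 8.03%, 10.1%, 32.6% and 7.82% were called lower in these fits, so that the members' share was below the background in each. The median over the members was also above that of tet-YAP against WT after rescaling (-0.15 and -0.21), after quantile normalization (-0.05 and -0.15) and undivided (-0.19 and -0.23). It was below in RPKM as deposited (-0.57 and -0.34) and with depth as a covariate (-0.38 and -0.29). Against tet-Myc, 66 members fell (background 36.3% lower). In that comparison every tet-Myc/YAP library was below every tet-Myc library for 79 members and 49.4% of all genes, and in undivided reads per kilobase for 65 members and 26.8% of all genes. Against tet-YAP 5 members fell (background 23.2% lower). Without tet-Myc/YAP libraries 1 and 2, which form 1 of the 6 close pairs, 23 members were called against WT and 19 against tet-Myc, beside 27.7% and 24.9% of all genes called lower. That fit assumes that the 1 remaining library varies like those of the other groups. The remaining library, number 3, was also the only one of tet-Myc/YAP with the female Xist pattern. No R26 WT or tet-YAP library showed that pattern. Hepatocyte markers summed to 179 to 291 RPKM in R26 WT and 135 to 206 in tet-Myc/YAP, with 6 of 6 over 1 RPKM in both. Without overlap, macrophage markers (5 of 6 found) went from 75.0 to 89.9 RPKM in WT to 34.0 to 38.4, the 6 endothelial markers from 42.1 to 49.2 to 26.4 to 26.8 and the 6 stellate and fibroblast markers from 38.8 to 44.5 to 23.4 to 26.3, with every marker found over 1 RPKM in both groups. The part of these cell types was not tested.

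Ndufaf3 was the member that stood out in R26 tet-Myc/YAP. It stood at 9.31, 9.35, 9.41 and 7.37 RPKM in WT, 7.84, 8.32, 9.24 and 9.60 in tet-Myc, 6.51 to 8.41 in tet-YAP (median 7.82) and 2.79, 2.73 and 4.83 in tet-Myc/YAP. All 3 livers with both transgenes, the shallow one included, lay below all other R26 livers. The log2 difference to WT was -1.28 ± 0.15 (SE, adjusted p = 3.40e-06), and -1.06 with depth as a covariate (adjusted p = 8.10e-05). It also fell against tet-Myc (-1.26, adjusted p = 4.38e-06) and tet-YAP (-1.07, adjusted p = 1.34e-05), and was called in all 4 other settings in each of these comparisons. Of its 1487 exon bases, 48 (3.2%) overlap an exon of Impdh2 on the opposite strand, and the library kit does not mark strand. Exons of 25 of the 92 members overlap those of another gene in GENCODE M21, and Ndufaf4, Atp5sl, Sdhb, Ndufa1, Ndufb3, Cox6b2 and Atp5s are not among them.

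The R26 interaction was negative and called for 5 of 86 members (background 21.1% lower), with a median of -0.26 over the members and -0.26 over all genes. It was -1.06 ± 0.19 (SE, adjusted p = 0.000827) for Ndufaf3, -0.51 ± 0.12 for Ndufv1, the NADH-oxidizing subunit (adjusted p = 0.00316), -0.58 ± 0.19 for Atp5sl (adjusted p = 0.0219) and -0.59 ± 0.19 for Ndufaf4 (adjusted p = 0.0221). Only that of Ndufaf3 was called in all 4 other settings. Ndufv1 stood at 28.6, 30.1, 31 and 30.9 RPKM in R26 WT and 17.8, 16.3 and 19.4 in tet-Myc/YAP, and with Ndufs8, an iron-sulfur core subunit, and Ndufaf1 it was among the members with the lowest adjusted p against WT (-0.75, -0.79 and -0.82). The members' median R26 interaction equalled that of all genes to 2 decimals and was 0.04 after rescaling and 0.03 after quantile normalization. It stayed negative with depth as a covariate (-0.21) and undivided (-0.18). The LAP median was 0.20 to 0.34 in the 4 other settings, and the difference between the systems was not tested.

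Cox6b2, the testis form of a complex IV subunit, was near the lower limit in WT liver, at 0.489, 0.312 and 0.220 RPKM in LAP, and rose in tet-YAP, tet-Myc/YAP and tumours. It stood at 1.86, 1.45 and 0.413 RPKM in tet-Myc, 3.73, 1.43, 2.93 and 1.38 in tet-YAP, 4.66, 2.89 and 7.96 with both transgenes and 0.895 to 7.81 in tumours (median 2.98). Every tet-YAP, tet-Myc/YAP and tumour library lay above every WT library, and tet-Myc overlapped it. The log2 difference to WT was 1.69 ± 0.51 (SE, adjusted p = 0.0176) in tet-YAP, 2.67 ± 0.54 (adjusted p = 0.000704) in tet-Myc/YAP and 2.01 ± 0.45 (adjusted p = 0.000717) in tumours, and those of tet-Myc/YAP and tumours were called in all 4 other settings. Its partner Cox6b1 moved the other way in tumours, from 21 ± 4.2 (SD, n = 3) to 12.3 ± 1.6 RPKM (SD, n = 8), but its fall of 0.74 was -0.11 with depth as a covariate. At these levels Cox6b2 remained below Cox6b1 in the mean of each group.

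In R26, where Cox6b2 was not tested, it was listed at 0 to 0.172 RPKM in WT, 0 to 0.261 in tet-Myc, 0.487 to 0.740 in tet-YAP and at 3.14, 3.14 and 0.255 in tet-Myc/YAP. The 6 tet-YAP livers were above all WT and tet-Myc livers, and the 2 high tet-Myc/YAP libraries were the pair that differed little from each other.

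Ndufa4l2, the hypoxia-inducible relative of Ndufa4, had a wider range in tumours than in any other group, from 0.361 to 3.73 RPKM with a median of 1.24. It was 0.510, 0.530, 0.489 and 0.466 in tet-YAP, and 6 of 8 tumours lay above all 4 of these livers while the other 2 lay below. The difference of 0.90 ± 0.345 (SE, adjusted p = 0.0484) was not called with depth as a covariate (adjusted p = 0.0715). In R26 it went the other way, from 1.04, 1.48, 1.35 and 0.791 RPKM in WT to 0.275, 0.275 and 0.320 in tet-Myc/YAP, a fall of 1.06 on the log2 scale (adjusted p = 0.000257) that was called in all 4 other settings. Its ubiquitous relative Ndufa4 stood at 22.6 ± 2.9 RPKM in LAP WT (SD, n = 3) and 13 ± 2.2 in tumours (SD, n = 8).

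**Figure D4:**
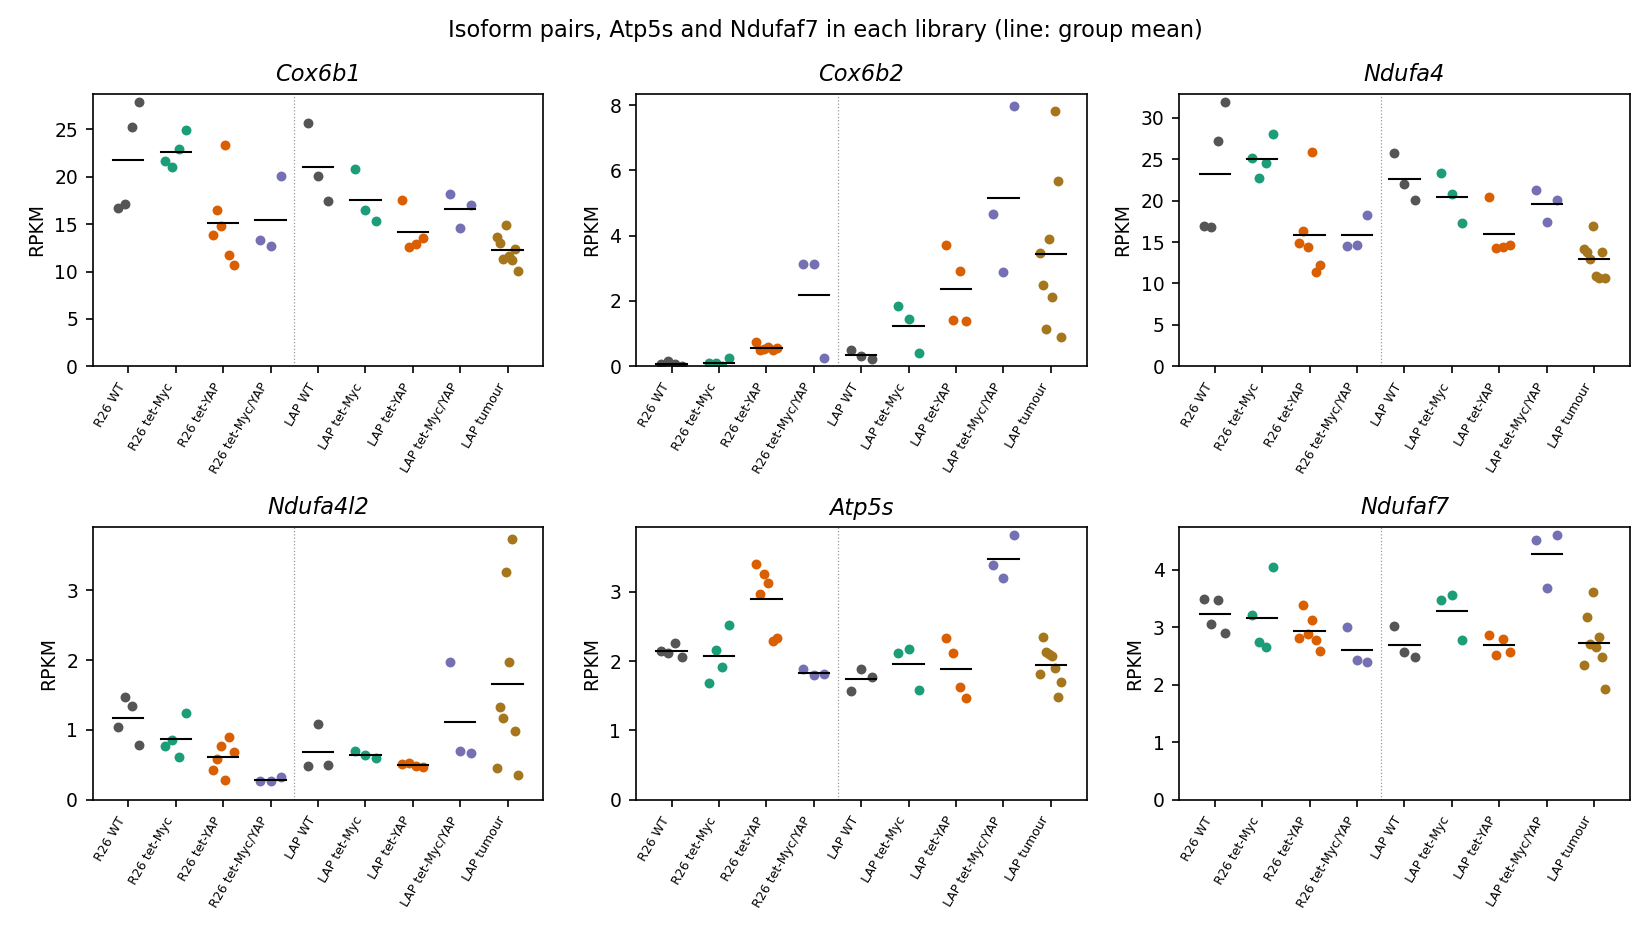
RPKM (vertical axis, from 0) of Cox6b1, Cox6b2, Ndufa4, Ndufa4l2, Atp5s and Ndufaf7 in each library of the 9 groups, with the group mean as a line. Cox6b2 lies between 0.220 and 0.489 in LAP WT and between 0.895 and 7.81 in tumours, and Atp5s is 3.20 to 3.82 in LAP tet-Myc/YAP, above the other LAP libraries.

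The other restricted forms stayed low. Cox7a1, the heart and muscle form, was the most abundant of them and averaged 0.816 to 2.22 RPKM over the 9 groups, with no call in any comparison, while Cox7a2, its ubiquitous partner, was between 7.99 and 16.1. Cox4i2, a lung-enriched form, was at 0 to 0.197 RPKM in R26, and in tumours it reached 0.158 to 0.916 against 0 to 0.0674 in LAP WT. Cox8b, another muscle form, was at most 0.335 RPKM in any library. Cox6a2, a muscle form, reached 2.37 RPKM in tumour library 5 and at most 0.819 elsewhere. Summed markers of brown fat and striated muscle were between 0.0135 and 0.461 RPKM in tumours, with none of the 5 over 1 RPKM. Among the 3 genes for the same membrane-ring protein of complex V, LAP WT and tumour means were 25.4 and 11.7 RPKM for Atp5g1, 20.4 and 13.7 for Atp5g2 and 30.1 and 15.3 for Atp5g3, and all 3 fell in RPKM (-1.06, -0.55 and -0.94), while with depth as a covariate Atp5g2 was at 0.09.

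**Figure D5:**
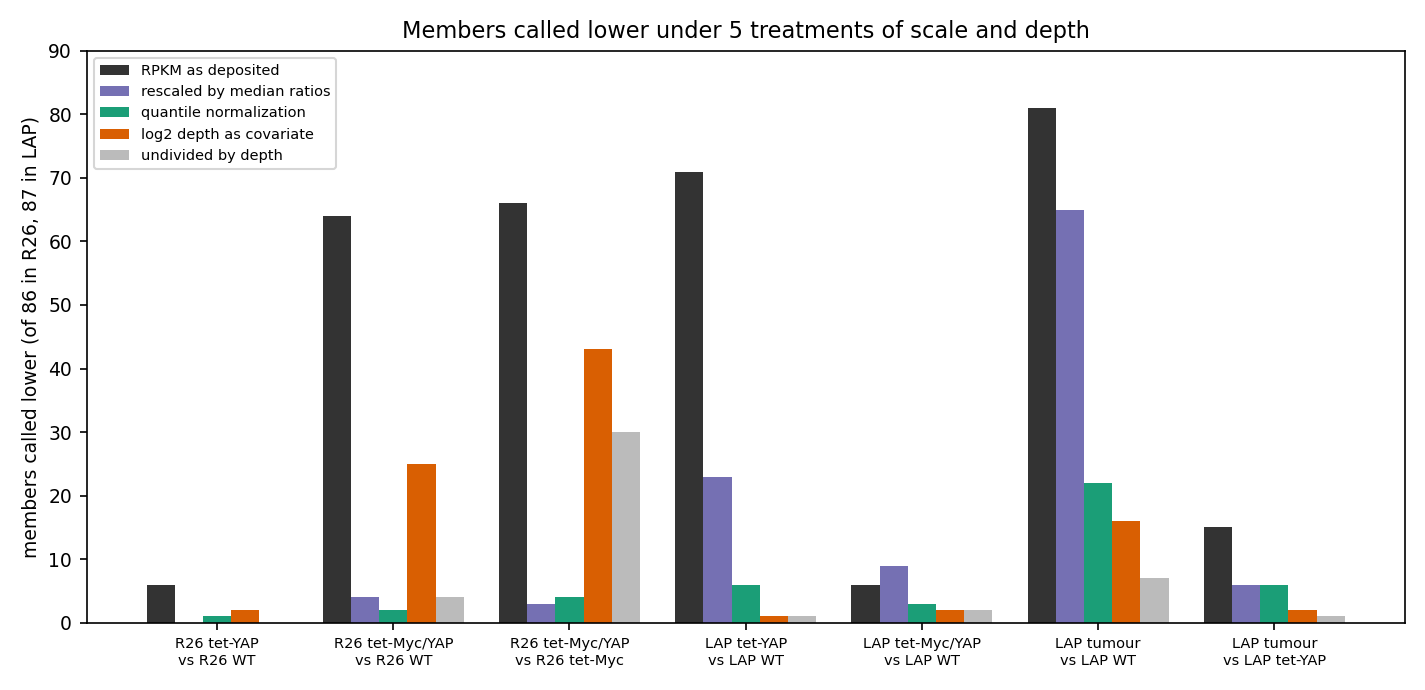
Members called lower (vertical axis, of 86 in R26 and 87 in LAP) in 7 comparisons, with RPKM as deposited and under 4 other treatments of scale and depth (bars by colour). In tumours against LAP WT the bars stand at 81, 65, 22, 16 and 7, and in R26 tet-Myc/YAP against WT at 64, 4, 2, 25 and 4.

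Genes around the respiratory chain, taken from lists of neighbouring pathways, moved in the same direction in tumours. Against LAP WT in RPKM as deposited, 31.3% of all genes were called lower, and the median over all genes was -0.14. Of 17 tricarboxylic acid cycle genes 16 fell (median -0.89), among them Cs, the citrate synthase gene (-0.84, adjusted p = 8.77e-05), and Pcx, which encodes pyruvate carboxylase (-1.32, adjusted p = 3.25e-05). Lower were also 20 of 28 assembly factors outside the members (median -0.77), 9 of 13 carriers and porins, 8 of 13 regulators of mitochondrial biogenesis and 4 of 5 electron carriers and further subunits. Among regulators, Tfam, which maintains mitochondrial DNA, fell by 0.83 (adjusted p = 0.000278) and Esrra by 0.93 (adjusted p = 0.000201). Slc25a4, the ADP/ATP carrier of heart and muscle, was the carrier that rose (1.85, adjusted p = 6.05e-08), while Slc25a5, its widely expressed relative, fell by 0.90 (adjusted p = 2.47e-05). These lists share depth with the members, of whose 81 calls 16 held with depth as a covariate. Counts of the lists under other treatments of depth are not given here. Apart from Slc25a4 no gene of these lists rose.

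In R26 tet-Myc/YAP against WT, 8 of 17 tricarboxylic acid cycle genes, 13 of 28 assembly factors, 4 of 13 carriers and 4 of 5 electron carriers fell, beside 37.6% of all genes. Of 13 regulators none fell and 2 rose, 1 of them Ppargc1a, a coactivator of mitochondrial biogenesis (1.60 ± 0.20 SE, adjusted p = 6.24e-06). In LAP tet-YAP against WT the counts of lower genes were 9 of 17, 11 of 28, 7 of 13, 5 of 13 and 4 of 5 for the tricarboxylic acid cycle, assembly factors, carriers, regulators and electron carriers, beside 15.3% of all genes.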

How the data were processed

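Total RNA from mouse livers and liver nodules was purified on columns and made into 38 libraries with a kit that does not mark strand, leaving out the poly-T bead step. RPKM was computed by the authors for each gene, and 1 table was deposited per system. Tools listed in the submitters' processing notes are featureCounts 1.4.5-p1, DESeq2, SAMtools and TopHat2 2.0.8, with the build mm9, and whether duplicate reads were removed is not given in the sources used here. A further deposited table holds the authors' own comparisons (fold changes and adjusted p-values) and was not used. Columns were assigned to groups by name, and libraries were numbered in column order, since no column is tied to a replicate label. Of 21671 genes, 27 with symbols turned into dates were left out.

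Values were taken as log2(RPKM + 0.5), a scale that understates differences of low genes, and genes that reached 1 RPKM in 3 or more libraries of a system were fitted, all groups together, in limma 3.58.1 (R 4.3.3) with a mean-dependent trend. Two-sided p-values were adjusted by Benjamini-Hochberg over all genes of a system. The 14 comparisons share control libraries. Depth was recovered from the single-read steps of 1357 R26 and 1292 LAP genes, of which 56.9% and 59.0% lay within 2% of the depth taken. Scripts were tested on simulated data. In R26, 6 pairs of libraries differed little (1.29 to 1.81 times the counting variance, against 2.40 or more for all others). Taken from the median instead, the ratio of these pairs was 0.88 to 1.55, so some differed no more than counting gives. They were WT 1 and 4, WT 2 and 3, tet-YAP 1 and 4, tet-YAP 2 and 5, tet-YAP 3 and 6, and tet-Myc/YAP 1 and 2. Every R26 WT and tet-YAP library was thus in a pair. The labels do not tell whether a pair shares an animal, and all libraries were kept as separate samples. Promoters are from RefSeq and exons from GENCODE M21, both on GRCm38, and all 92 symbols matched.

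The members, the neighbouring pathway lists and the tests were chosen with earlier results of these data known. Named genes are the tissue isoform sets, up to 4 higher and 4 lower called members per comparison with the lowest adjusted p, the most abundant member per complex, and complex II. Ndufb3, members beyond these, and genes of the neighbouring lists were chosen after their values were seen. The depth covariate, the undivided reads per kilobase and the leaving out of library pairs were added after seeing the data.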

Additional observations from a re-analysis of the deposited data

Results flagged for a closer look

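Among 229 sets of values in groups of 4 to 10 libraries, 14 held a library set apart from the rest of its group (6.1%), and chance alone flags about 5% of such sets. In R26 tet-YAP, library 4 was high for 3 members. It stood at 17.7 RPKM for Cox7a2 (others 9.76 to 12.3), 25.9 for Ndufa4 (others 11.4 to 16.3) and 16.9 for Sdhb (others 9.12 to 11.8). In R26 WT, Ndufaf3 was low in library 4 at 7.37 RPKM (others 9.31 to 9.41) and Ndufs8 high in library 3 at 22.8 (others 21.3 to 21.4). In LAP tet-YAP, library 1 was high for Cox7b at 10.8 RPKM (others 7.33 to 7.54), for Ndufa4 at 20.4 (others 14.2 to 14.7) and for complex IV summed at 231 (others 159 to 171). Among tumours, library 4 was high for Atp5b at 29.2 RPKM (others 19.8 to 23.0) and Ndufa6 at 17.5 (others 11 to 13), and library 5 for Cox6a2 at 2.37 (others 0 to 0.645). Tumour library 8 was low for Cox7a2 at 6.42 RPKM (others 7.84 to 8.93), Ndufs7 at 5.80 (others 7.87 to 9.60) and Ndufv1 at 8.91 (others 12.6 to 15.2).

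The interaction term of Myc and YAP in limma was called for 14 members named in the text or in these results. In R26, 5 of 86 members were called, all lower, beside 21.1% of all genes called lower. In LAP, 16 of 87 were called, beside 15.7% of all genes in either direction. Only 1 of the R26 calls and none of those in LAP held in all 4 other settings of scale and depth. In R26 the log2 interaction was -1.06 for Ndufaf3 (adjusted p = 0.000827), -0.51 for Ndufv1 (adjusted p = 0.00316), -0.58 for Atp5sl (adjusted p = 0.0219), -0.59 for Ndufaf4 (adjusted p = 0.0221) and -0.54 for Ndufa7 (adjusted p = 0.0406). In LAP it was 0.96 for Ndufs7 (adjusted p = 0.0179), 0.85 for Ndufa11 (adjusted p = 0.0190), 0.90 for Cox7a2l (adjusted p = 0.0216), 0.89 for Ndufb5 (adjusted p = 0.0223), 0.77 for Ndufb7 (adjusted p = 0.0396), 0.77 for Sdhd (adjusted p = 0.0410), 0.68 for Sdhb (adjusted p = 0.0460), 0.71 for Ndufa6 (adjusted p = 0.0465) and 0.66 for Cox4i1 (adjusted p = 0.0473).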

How the results depend on the processing

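In LAP no paired analysis was possible because the columns carry no numbers, and no source ties the numbers in the R26 headers to replicates. Same-numbered R26 libraries of different groups correlated in their deviations at r of -0.25 to 0.40 over 21 pairs (median 0.02). Over 85 pairs with other numbers r was -0.38 to 0.23 (median -0.01). Of 15 libraries, 7 were closest to one of their own number. The count to be had by chance was not computed, so these values do not settle whether the numbers mark a pairing. With the header number as a replicate block the counts were 0 for R26 tet-Myc, 1 for R26 tet-YAP, 48, 51 and 13 for R26 tet-Myc/YAP against WT, tet-Myc and tet-YAP and 12 for the R26 interaction. The counts of called members under other settings follow, in the order tet-Myc, tet-YAP, tet-Myc/YAP against WT, tet-Myc and tet-YAP, and interaction, where a value differs from the main count by over 1.5 times. Rescaling by median ratios gave 0 for R26 tet-YAP, 4, 3 and 1 for R26 tet-Myc/YAP against WT, tet-Myc and tet-YAP, 1 for the R26 interaction, 24 for LAP tet-YAP, 1 for LAP tet-Myc/YAP against tet-YAP, 4 for the LAP interaction and 7 for tumours against tet-YAP. Quantile normalization gave 1 for R26 tet-YAP, 2, 4 and 2 for R26 tet-Myc/YAP, 2 for the R26 interaction, 6 for LAP tet-YAP, 4, 0 and 2 for LAP tet-Myc/YAP, 1 for the LAP interaction, 23 for tumours against WT and 6 against tet-YAP. Depth as a covariate gave 1 for R26 tet-Myc, 2 for R26 tet-YAP, 25, 43 and 3 for R26 tet-Myc/YAP, 2 for LAP tet-YAP, 5 and 3 for LAP tet-Myc/YAP against WT and tet-YAP, 1 for the LAP interaction, 17 for tumours against WT and 2 against tet-YAP. Undivided reads per kilobase gave 2 for R26 tet-Myc, 0 for R26 tet-YAP, 4, 30 and 1 for R26 tet-Myc/YAP, 1 for the R26 interaction, 2 for LAP tet-YAP, 2 for LAP tet-Myc/YAP against tet-YAP, 1 for the LAP interaction, 12 for tumours against WT (5 higher and 7 lower) and 2 against tet-YAP. A correction for a ceiling of 2000 reads per kilobase gave 11 for R26 tet-YAP and 12 for LAP tet-Myc/YAP against tet-YAP. A pseudocount of 1 gave 3 for R26 tet-YAP, averaging close pairs 0 there and 1 for the R26 interaction, no filter 6 for the LAP interaction, fitting only the groups compared 5 for LAP tet-Myc/YAP against WT, and the sex pattern as a covariate 13 for LAP tet-Myc/YAP against tet-YAP and 6 for tumours against tet-YAP. Without R26 tet-Myc/YAP libraries 1 and 2 together the counts were 23, 19 and 2 for R26 tet-Myc/YAP and 1 for the interaction. Without LAP WT library 1 and tet-YAP library 1 together they were 5 and 31 for LAP tet-Myc/YAP against WT and tet-YAP, 6 for the interaction and 5 for tumours against tet-YAP. The cause of these differences was not tested.

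Leaving out single libraries gave 0 to 1 for R26 tet-Myc, 1 to 23 for R26 tet-YAP, 43 to 75, 45 to 76 and 3 to 15 for R26 tet-Myc/YAP, 1 to 11 for the R26 interaction, 0 to 1 for LAP tet-Myc, 23 to 79 for LAP tet-YAP, 5 to 25, 1 to 2 and 3 to 31 for LAP tet-Myc/YAP, 0 to 55 for the LAP interaction, 80 to 82 for tumours against WT and 6 to 17 against tet-YAP. In R26 the highest counts of tet-Myc/YAP came without its library 3 and the lowest without its library 2. No result changed sign past the threshold under any of these settings. Groups of 3 libraries, depth that moves with genotype, and the ceiling on abundant genes limit what these counts can show.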
